A study of Mus musculus with 20 samples.

Results

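A set of 10 genes known to be switched on quickly when tissue is handled or heated was followed in the fetal mouse gonad. They are the immediate early genes Fos, Fosb, Jun, Junb, Egr1, Ier2 and Atf3 and the heat shock genes Hspa1a, Hspa1b and Dnajb1. Members were the array probes, other than control spots, whose name, synonym or accession belongs to one of these genes. Of the 10 genes, 9 were on the array, with 15 probes on 33 spots, out of 27670 genes or names in all. All 9 passed the filter on dim signal and were tested among 23846 genes. Hspa1b was not found under its name, synonyms or accessions, and no value is given for it.

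RNA of 1 pair of XY gonads per array was measured on 20 Agilent arrays of 2 colours. The groups were (B6x129S1)F1 and (129S1xB6)F1, the reciprocal hybrids, and the inbred strains C57BL/6J and 129S1/SvImJ, with 5 arrays each. All gonads came from embryos of day 11.5 with 17 to 21 tail somites, were cut away from the mesonephroi in PBS and were kept in RNAlater. Gonad RNA carried Cy5 on every array. The Cy3 dye carried 1 common pool, from a cross of Sox9-ECFP(C57BL/6J) with CD-1 mice, that joined gonads (4 XY pairs and 3 XX pairs) with entire embryos (4 XY, 2 XX), so a log2 ratio above 0 means a higher share in the gonad than in that pool. There were no dye swaps, and a dye bias of a probe stays in its ratio but cancels in differences between groups. Arrays are named here by the letter and number in the sample titles. The labels do not say whether a letter stands for a litter, nor which parent of a hybrid was the mother.

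Immediate early genes need no new protein for their induction. Serum response factor and its partners, and CREB, switch on Fos, Egr1, Junb and Ier2, whose messages rise and decay quickly. FOS and JUN family proteins pair to form the AP-1 transcription factor, EGR1 is a zinc finger factor, and ATF3 is a factor of the stress response. Hspa1a and Hspa1b encode the inducible HSP70 chaperone, and Dnajb1 encodes its co-chaperone HSP40. Heat shock factor 1 switches on these genes when proteins unfold.

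The probes that carry the main findings are shown as the scanner files list them. For Fos and for the brighter Dnajb1 probe, the first 30 bases are given. The dimmer Dnajb1 probe and a pair of Hspa1a probes are given whole, and each has at least 1 reading frame without a stop codon on the strand shown. The last line holds the 30 bases that the other 2 Hspa1a probes share, so these 2 probes are not independent readings.
Fos: ggactttattttccagtagatagaaatcaa
Dnajb1, brighter probe: ggcgtgaaagtatctgttctttggagctag
Dnajb1, dimmer probe: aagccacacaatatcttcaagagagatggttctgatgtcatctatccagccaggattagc
Hspa1a, probe with mean log2 ratio 0.26: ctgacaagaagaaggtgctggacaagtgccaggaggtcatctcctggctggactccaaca
Hspa1a, probe with mean log2 ratio 0.14: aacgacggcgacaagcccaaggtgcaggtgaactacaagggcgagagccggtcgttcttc
Hspa1a, shared stretch: agggaaactaaactgtctttcagttacttt

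The 250 bases before the start of Fos, Hspa1a and Hspa1b are shown because Fos varied most among the members and because Hspa1b, which has no probe here, can be set beside Hspa1a by sequence. They are from RefSeq (GRCm38.p6), on the coding strand, at chr12:85473640-85473889 (+), chr17:34972157-34972406 (−) and chr17:34959239-34959488 (−). Capitals mark matches to 5 motifs searched on both strands, which were the CArG box by name, TGACGTCA, TGANTCA, GAANNTTC and TATAAA. Each window below holds 1 match, so none overlap.
Fos: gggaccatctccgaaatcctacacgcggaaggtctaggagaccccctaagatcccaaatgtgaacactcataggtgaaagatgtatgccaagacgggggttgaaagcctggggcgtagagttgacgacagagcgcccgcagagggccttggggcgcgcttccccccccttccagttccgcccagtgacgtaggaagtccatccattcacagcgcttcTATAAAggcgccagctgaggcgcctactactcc
Hspa1a: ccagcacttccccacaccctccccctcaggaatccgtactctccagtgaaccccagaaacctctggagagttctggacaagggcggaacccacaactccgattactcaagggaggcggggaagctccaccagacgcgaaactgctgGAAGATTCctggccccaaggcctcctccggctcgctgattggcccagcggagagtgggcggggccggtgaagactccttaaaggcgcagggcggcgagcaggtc
Hspa1b: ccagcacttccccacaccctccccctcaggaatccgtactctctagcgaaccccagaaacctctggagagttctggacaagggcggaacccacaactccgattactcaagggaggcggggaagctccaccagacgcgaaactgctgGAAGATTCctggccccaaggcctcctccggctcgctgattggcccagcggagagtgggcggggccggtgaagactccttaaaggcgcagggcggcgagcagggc
The Hspa1a and Hspa1b windows were identical at 247 of 250 bases. GAANNTTC, the core of a heat shock element, lay at bases -104 to -97 in both and at -128 to -121 in Jun, and 6.69% of 32851 windows hold it. TATAAA lay at -33 to -28 in Fos, against 12.4% of windows. The CArG box was in 1.47% of windows, TGACGTCA in 1.55% and TGANTCA in 6.75%, and none of these 3 was in the windows of the 8 members that have one. Egr1 and Ier2 have no window. Only these 250 bases and these exact forms were searched, so a site farther off or of another form would be missed.

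As a check of the tissue, all 5 markers of gonad somatic cells (Nr5a1, Gata4, Wt1, Emx2, Lhx9) were detected on every array, and their mean log2 ratio to the pool lay between 2.00 and 3.17. That mean was 2.82 in C57BL/6J and 2.38 in 129S1/SvImJ, and the mean of 6 germ cell markers was 1.52 and 1.91. The mean of 6 mesonephros markers was highest in M3 (0.62) and A6 (0.23), and -0.47 to 0.21 on the other arrays. The part of the cell mix in the results was not tested. Between 78.4% and 88.3% of gene spots were well above background in Cy5 per array. The arrays came on 5 slides of 4. Slide 1 held only the 2 strains, slide 5 only the 2 hybrids, and slides 2 to 4 held all 4 groups. In bulk RNA, fewer cells of a type and less RNA per cell cannot be told apart.

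On their brightest probes, Egr1, Junb, Fosb and Hspa1a stood above the pool on all 20 arrays, and Jun stood below it on all 20. The dimmer Junb probe was above the pool on 16 of 20 arrays, and the other Hspa1a probes on 17, 18 and 15. Egr1 (chromosome 18) had a mean log2 ratio of 1.40 ± 0.41 (SD, n = 20), 2.64-fold over the pool, and 98.1% of the genes tested had a lower mean ratio. Junb averaged 0.88 ± 0.29 on its brighter probe, Fosb 0.29 ± 0.16 and Hspa1a 0.59 ± 0.34. Jun averaged -0.57 ± 0.25, which is 1.49-fold below the pool. Ier2, Atf3, Dnajb1 and Fos, also on their brightest probes, lay on both sides of 0 among the arrays.

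**Figure D1:**
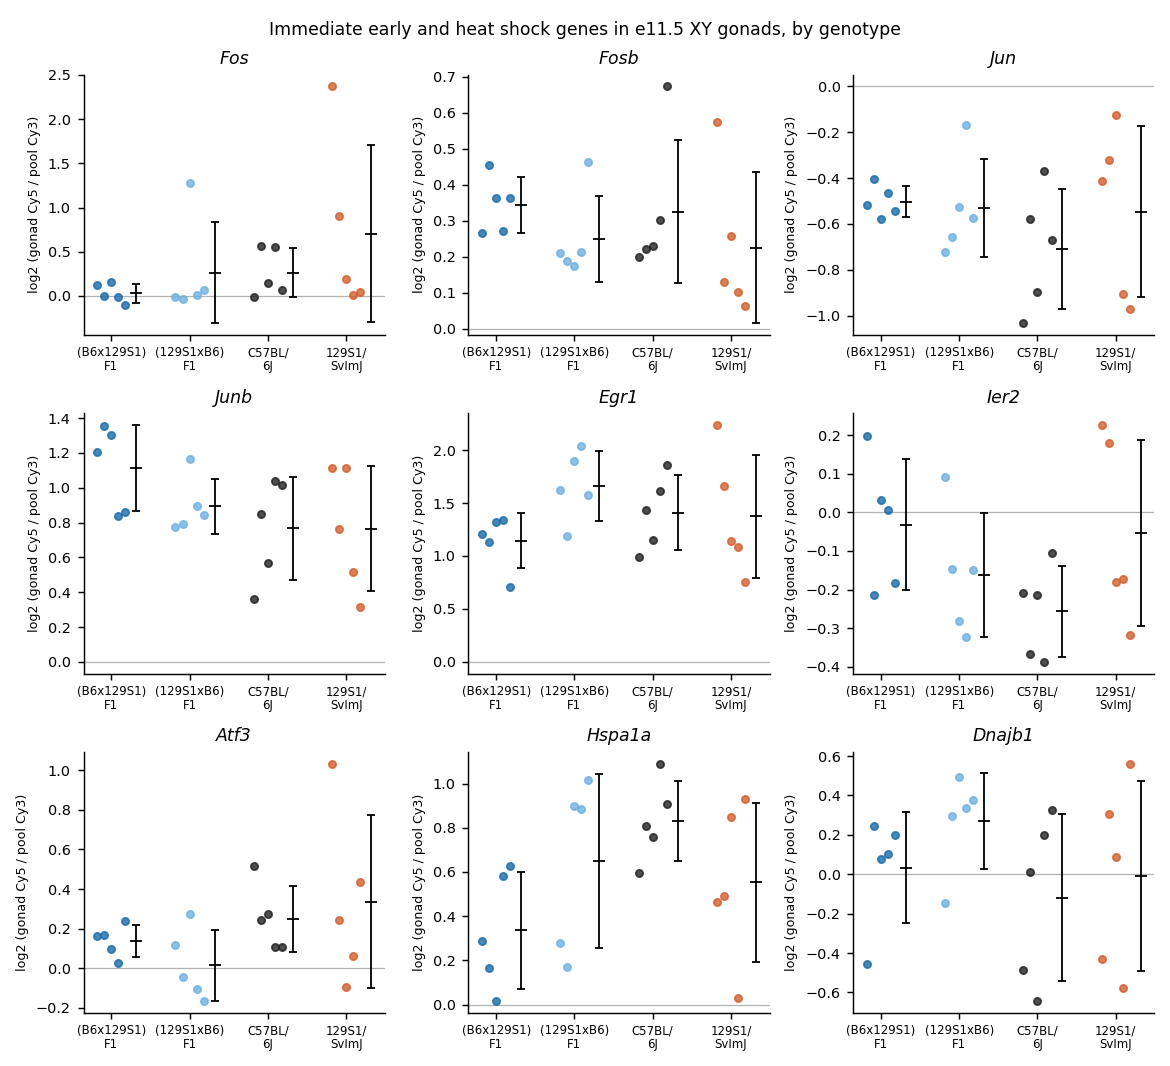
Log2 ratio of gonad (Cy5) over pool (Cy3) for the 9 members on their brightest probe, one point per array, with the mean and SD over 5 arrays beside each genotype. The genotypes overlap in every panel, and Fos is high in L4 of (129S1xB6)F1 (1.28) and in A3 and A4 of 129S1/SvImJ (2.37 and 0.90).

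Fos (chr12:85473890-85477274) encodes the founding FOS protein of AP-1. Its log2 ratio was 0.13, 0.0035, 0.15, -0.013 and -0.11 in (B6x129S1)F1 arrays C2, C3, C4, E1 and F2. In (129S1xB6)F1 it was -0.0082, -0.039, 1.28, 0.016 and 0.071 in L1, L2, L4, M3 and M6. Only L4 stood out among the hybrids. In C57BL/6J it was -0.0096, 0.57, 0.14, 0.55 and 0.068 in H1, H2, H3, H4 and K2. In 129S1/SvImJ it was 2.37, 0.90, 0.20, 0.0098 and 0.043 in A3, A4, A6, D4 and G3. Fos thus had a ratio near 0 on most arrays and clearly above 0 on 5. These 5 belonged to 3 genotypes and to slides 1, 2 and 4. The 10 Fos spots of an array differed by a median SD of 0.071, which covers spot noise only. Fos is a dim probe, with a net Cy5 signal of 31.3 to 396.5 and a median of 56.0, and was well above background on 18 of 20 arrays. The offset of 50 shrinks its ratios, and array A3 reads 3.77 and L4 2.36 from the processed signals of the scanner. From the same signals A4 reads 1.86, H2 1.42 and H4 1.34, and the other arrays run from -0.55 (F2) to 0.73 (C4). A ratio near 0 with the offset therefore does not show that Fos equals the pool.

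The genotype means of Fos were 0.033 ± 0.11 in (B6x129S1)F1, 0.26 ± 0.57 in (129S1xB6)F1, 0.26 ± 0.28 in C57BL/6J and 0.70 ± 1.00 in 129S1/SvImJ (SD, n = 5 each). All 4 groups overlap. The strain difference was -0.44 ± 0.35 (SE, 95% interval -1.17 to 0.29), with an adjusted p of 0.669 in limma. Without array A3 the strain difference came to -0.023. Within slides 1 to 4, which held 1 or 2 arrays of each strain, it was -1.12, -0.33, -0.13 and 0.51.

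Within genotypes, Fos had an SD of 0.59, larger than that of 98.6% of the genes tested. Among the 1000 genes nearest to it in brightness it exceeded 99.5%. The SD of its Cy5 signal was 9.01 times that of its Cy3 signal, against a median of 1.75 over all genes. Its Cy3 signal was dim, 6.37 to 6.60 on the log2 scale with the offset of 50 included, which narrows the Cy3 SD. Its Cy5 signal was 8.78 on A3 and 7.75 on L4, the next. The part of dimness and of A3 in the 9.01 was not tested. Of the 9 members, 8 had an SD above the median of all genes, 0.18, but Ier2 only just, exceeding 50.1% of genes. Among 1000 genes of like brightness, Ier2 exceeded 17.8%, Fosb 27.8%, Jun 53.9% and Junb 61.4%. Atf3, Dnajb1, Hspa1a and Egr1 exceeded 85.3% to 90.7% in that comparison. Fos alone was above the 95th percentile of all genes, 0.42. That rests on array A3: without it the SD of Fos was 0.38, larger than that of 92.7% of genes and below the 95th percentile, and it was 0.54 to 0.61 with any other array left out. Egr1 followed at 0.40 and Dnajb1 at 0.37, while Fosb, at 0.16, was below the median.

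**Figure D2:**
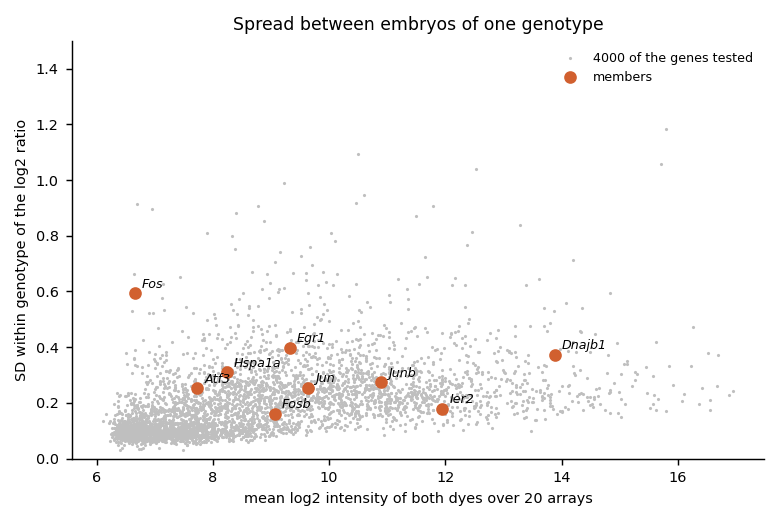
SD of the log2 ratio between arrays of one genotype against mean log2 intensity. Grey points are a random part of the genes tested and orange points the 9 members. Fos has an SD of 0.59 at low intensity (0.38 without A3), and Egr1 and Dnajb1 lie near 0.40 and 0.37.

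Egr1 was 1.21, 1.13, 1.33, 1.34 and 0.71 in (B6x129S1)F1 arrays C2, C3, C4, E1 and F2. It was 1.62, 1.19, 1.90, 2.04 and 1.58 in (129S1xB6)F1 arrays L1, L2, L4, M3 and M6. All (129S1xB6)F1 arrays but L2 were above every (B6x129S1)F1 array. It was 0.99, 1.44, 1.15, 1.61 and 1.86 in C57BL/6J arrays H1, H2, H3, H4 and K2. It was 2.24, 1.66, 1.14, 1.08 and 0.75 in 129S1/SvImJ arrays A3, A4, A6, D4 and G3. The 2 hybrids were the farthest apart, with means of 1.14 ± 0.26 for (B6x129S1)F1 and 1.66 ± 0.33 for (129S1xB6)F1, and their arrays overlap. The difference was -0.52 ± 0.24 (95% interval -1.02 to -0.024), with an unadjusted p of 0.0407 and an adjusted p of 1.00 in limma. It did not pass the test. Within slides 2 to 5 it was -1.19, -0.058, -0.41 and -0.47.

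Junb (chr8:84976909-84978748), an AP-1 partner, averaged 1.11 ± 0.25 in (B6x129S1)F1, 0.89 ± 0.16 in (129S1xB6)F1, 0.77 ± 0.30 in C57BL/6J and 0.76 ± 0.36 in 129S1/SvImJ. By array, in the order in which the arrays of each group were named for Fos, Junb was 1.20, 1.36, 1.30, 0.84 and 0.86 in (B6x129S1)F1 and 0.78, 0.79, 1.16, 0.90 and 0.84 in (129S1xB6)F1. In the strains it was 0.36, 0.85, 0.57, 1.04 and 1.01 in C57BL/6J and 1.12, 0.76, 1.11, 0.52 and 0.31 in 129S1/SvImJ. The groups overlap, with the lowest arrays, G3 and H1, in the strains and the highest, C3, in (B6x129S1)F1. The hybrids minus the strains gave 0.24 ± 0.12, with an adjusted p of 0.544 in limma. These values are from the brighter probe. The dimmer Junb probe shares 22 bases with it and averaged 0.36 ± 0.46, with 16 of 20 arrays above 0. The 2 probes differ in how far they stand from the pool and in their pattern. The dimmer one averaged 0.55 ± 0.40 in (B6x129S1)F1 and 0.42 ± 0.45 in (129S1xB6)F1. In the strains it averaged 0.057 ± 0.41 in C57BL/6J and 0.40 ± 0.55 in 129S1/SvImJ. On it H2 was at -0.34, C3 was at 0.40 and C2 was the highest, while G3 was the lowest on both probes. The strain difference of the dimmer probe alone was not tested.

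Jun (chr4:95049036-95052222) averaged -0.50 ± 0.069 in (B6x129S1)F1, -0.53 ± 0.21 in (129S1xB6)F1, -0.71 ± 0.26 in C57BL/6J and -0.55 ± 0.37 in 129S1/SvImJ. By array Jun was -0.52, -0.40, -0.58, -0.47 and -0.55 in (B6x129S1)F1 and -0.72, -0.66, -0.53, -0.17 and -0.57 in (129S1xB6)F1, and -1.03, -0.58, -0.90, -0.37 and -0.67 in C57BL/6J and -0.41, -0.32, -0.12, -0.90 and -0.97 in 129S1/SvImJ. The (B6x129S1)F1 arrays lay close together, and the 129S1/SvImJ arrays held both the highest value, A6, and 2 of the lowest, D4 and G3. Fosb (chr7:19302696-19310118), another FOS protein, averaged 0.34 ± 0.078, 0.25 ± 0.12, 0.32 ± 0.20 and 0.22 ± 0.21 in the same order of groups. By array Fosb was 0.27, 0.45, 0.36, 0.27 and 0.36 in (B6x129S1)F1 and 0.21, 0.19, 0.17, 0.21 and 0.46 in (129S1xB6)F1, and 0.20, 0.22, 0.23, 0.30 and 0.67 in C57BL/6J and 0.58, 0.13, 0.26, 0.10 and 0.062 in 129S1/SvImJ. Both genes overlap between all groups, and K2 and A3 were the highest arrays for Fosb.

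Ier2 (chr8:84661331-84662852), a nuclear protein of the growth response, averaged -0.032 ± 0.17 in (B6x129S1)F1, -0.16 ± 0.16 in (129S1xB6)F1, -0.26 ± 0.12 in C57BL/6J and -0.053 ± 0.24 in 129S1/SvImJ. The strain difference was -0.20 ± 0.11, and its adjusted p of 0.433 was the lowest of any member in that comparison. By array Ier2 was -0.21, -0.37, -0.21, -0.39 and -0.11 in C57BL/6J and 0.23, 0.18, -0.18, -0.17 and -0.32 in 129S1/SvImJ, so every C57BL/6J array was below 0 and the 129S1/SvImJ arrays fell on both sides. A second Ier2 probe lay below 0 on all 20 arrays, while the brighter one did on 14. Atf3 (chr1:191170296-191183333) averaged 0.14 ± 0.080 in (B6x129S1)F1, 0.015 ± 0.18 in (129S1xB6)F1, 0.25 ± 0.17 in C57BL/6J and 0.34 ± 0.44 in 129S1/SvImJ. By array Atf3 was 0.51, 0.24, 0.27, 0.11 and 0.11 in C57BL/6J and 1.03, 0.25, -0.092, 0.060 and 0.44 in 129S1/SvImJ, where A3 was the highest of all arrays and H1, the next, was in the other strain. In the hybrids it lay between -0.16 and 0.27. The hybrids minus the strains was -0.22 ± 0.11, with an adjusted p of 0.556 in limma.

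Hspa1a (chr17:34969359-34972156) was highest in C57BL/6J on average on its brightest probe. Its brightest probe averaged 0.34 ± 0.26 in (B6x129S1)F1, 0.65 ± 0.39 in (129S1xB6)F1, 0.83 ± 0.18 in C57BL/6J and 0.55 ± 0.36 in 129S1/SvImJ. By array it was 0.29, 0.16, 0.018, 0.58 and 0.63 in (B6x129S1)F1 and 0.28, 0.17, 0.90, 0.89 and 1.01 in (129S1xB6)F1. It was 0.60, 0.81, 0.76, 1.09 and 0.91 in C57BL/6J and 0.46, 0.49, 0.85, 0.031 and 0.93 in 129S1/SvImJ. In (129S1xB6)F1, L1 and L2 lay low while L4, M3 and M6 lay high, and D4 was the lowest 129S1/SvImJ array. The strain difference was 0.28 ± 0.19 with an adjusted p of 0.569, and the difference between the hybrids was -0.31 ± 0.19 with an adjusted p of 1.00, both in limma. The hybrids minus the strains was -0.20 ± 0.13, and -0.44 ± 0.15 with slide as a block (adjusted p = 0.466 in limma). Over all 20 arrays the 4 probes averaged 0.59 ± 0.34, 0.40 ± 0.32, 0.26 ± 0.20 and 0.14 ± 0.16, with 20, 17, 18 and 15 arrays above 0. The probes averaging 0.40 and 0.26 were also highest in C57BL/6J, at 0.63 ± 0.093 and 0.38 ± 0.056. The probe averaging 0.14 was highest in 129S1/SvImJ, at 0.24 ± 0.22, against 0.11 ± 0.16 in C57BL/6J. That probe was well above background on 15 of 20 arrays. Whether these probes also bind Hspa1b was not tested.

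Across the genotypes, no member passed the test in any comparison. In C57BL/6J minus 129S1/SvImJ, 0 of 9 members were called, against 5.27% of all genes tested, and 0 had an unadjusted p under 0.05, against 14.8%. Between the reciprocal hybrids 0 of 9 were called, against 0.00839% of genes, and 1, Egr1, had an unadjusted p under 0.05, against 2.70%. In the mean of the hybrids minus the mean of the strains, 0 of 9 were called, against 0.243%, and 0 had an unadjusted p under 0.05, against 9.37%. The F test of any difference among the genotypes called 0 of 9, against 3.67%, with adjusted p-values of 0.513 to 0.890 in limma. At an unadjusted p under 0.05 it also named 0, against 12.9%. The median difference of the members was -0.087 between the strains, 0.027 between the hybrids and 0.021 between hybrids and strains, against 0.0080, 0.0082 and 0.0032 over all genes. No member had arrays of 2 compared groups that did not overlap, which 5.17% of genes had between the strains, 0.516% between the hybrids and 0.00419% between hybrids and strains.

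**Figure D3:**
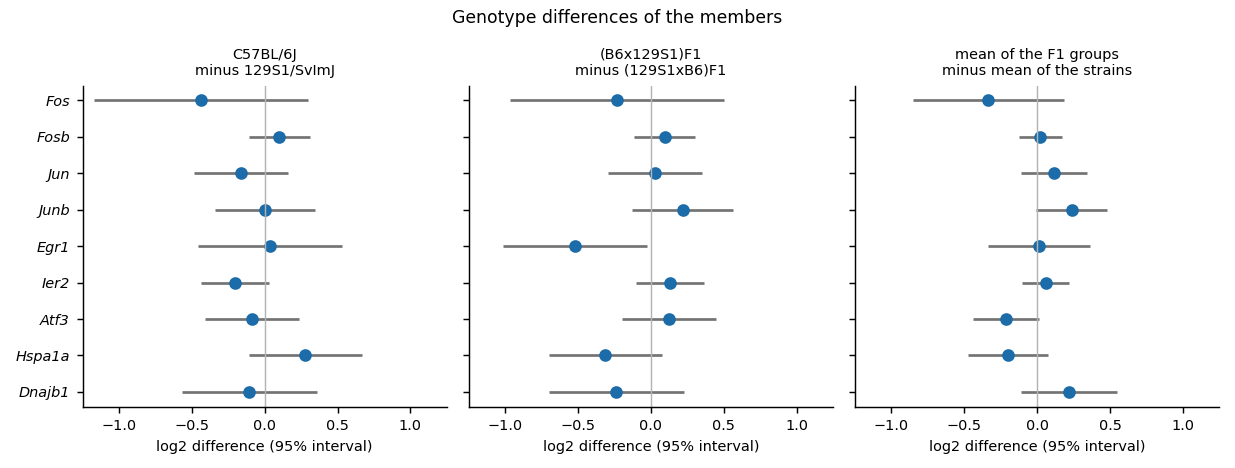
Log2 difference of each member with its 95% interval from limma, for the strains, the reciprocal hybrids and the hybrids minus the strains. All intervals cross 0 except that of Egr1 between the hybrids (-1.02 to -0.024), and Fos has the widest interval in each panel.

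Some arrays were high for several immediate early members. On the brightest probes, array A3 of 129S1/SvImJ was the highest of the 20 for Fos, Egr1, Ier2 and Atf3. On the dimmer Ier2 probe A3 was at -0.44 and was not the highest, which was F2 at -0.080. A3 was also the highest for 8 of 34 other immediate early genes on the list, or 23.5%. It was the highest for 9.97% of all genes, the largest share of any array. For 6 of the same 34 genes, or 17.6%, A3 was the lowest array (Myc, Maff, Csrnp1, Ier5, Zfp36 and Rhob), against 8.03% of all genes. The list as a whole thus did not move one way in A3. In A3 the mean of the markers ranked 16 of 20 for gonad somatic and for erythroid cells, 14 for germ cells, 5 for macrophages and 6 for endothelium and mesonephros, counted from the highest. All 8 macrophage markers were detected on all arrays, with list means of -0.21 to -0.0052 in (B6x129S1)F1, -0.32 to 0.32 in (129S1xB6)F1, -0.20 to 0.50 in C57BL/6J and -0.24 to 0.27 in 129S1/SvImJ. Their part in the result was not tested.

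Members were then compared in pairs over the 20 arrays, after the genotype means were taken off. Of 36 pairs, 0 passed the adjustment over the pairs in a permutation test within genotypes, and 9 had an unadjusted p under 0.05. The strongest was Fos with Egr1, at r = 0.72 (permutation p = 0.00514, adjusted p = 0.0836) and rho = 0.66 (permutation p = 0.00904, adjusted p = 0.0770). Without A3 and L4, the arrays farthest from the median of Fos, it was r = 0.56. For Jun and Junb the values were r = 0.72 (permutation p = 0.00421, adjusted p = 0.0836) and rho = 0.72 (adjusted permutation p = 0.0770), and r = 0.61 without the 2 arrays farthest out. Junb with Egr1 had r = 0.67 (permutation p = 0.00697, adjusted p = 0.0836) and rho = 0.63, and r = 0.53 without such arrays. Fos with Atf3 had r = 0.71 (permutation p = 0.0396, adjusted p = 0.178) and rho = 0.29, but r = -0.14 without such arrays, so that relation rests on them. Hspa1a with Dnajb1 had r = 0.59 (permutation p = 0.00938, adjusted p = 0.0844) and rho = 0.62, and r = 0.57 without the 2 arrays farthest out.

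The median r was 0.36 over the 21 pairs of immediate early members, of which 19 were above 0, and 0.079 over the 14 pairs of an immediate early with a heat shock member. These pairs share arrays and slides. No median r, share above 0 or share of small p-values was computed for pairs of other genes. The values therefore do not set the members apart from other genes. With slide taken off as well, Fos with Junb reached r = 0.80, Fos with Egr1 r = 0.83 and Junb with Egr1 r = 0.79, each with an adjusted permutation p of 0.0334. Hspa1a with Dnajb1 fell to r = 0.41 (adjusted permutation p = 0.41) with slide taken off. With the letter taken off, 0 pairs passed, and Hspa1a with Dnajb1 had r = 0.40 (adjusted permutation p = 0.39).

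**Figure D4:**
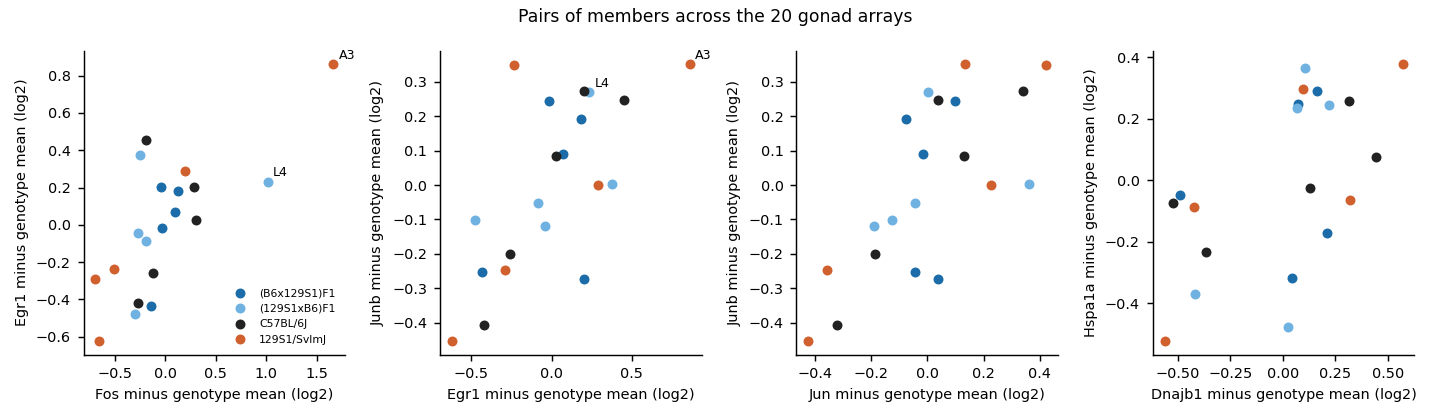
Residuals from the genotype mean on the log2 scale for 4 pairs of members, one point per array, coloured by genotype. Fos and Egr1 (r = 0.72) rise together with A3 at the upper end, and Dnajb1 and Hspa1a (r = 0.59) also rise together.

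As a description with no test, the genes most like the mean of the immediate early members over the 20 arrays were Rln1 (r = 0.90), Egr2 (0.86), Klf4 (0.83), Epgn (0.81), Trim55 (0.80), Dzip3 (0.79), Nubpl (0.78) and Psma5 (0.77), of 18026 genes compared. Without A3 and G3 these values were 0.45 to 0.74. The genes most like the mean of Hspa1a and Dnajb1 were Tdg (0.93), Golga2 (0.93), Piga (0.92), Msl1 (0.92), Mtmr4 (0.92), Zfp503 (0.92), Zfp521 (0.91) and Wdr47 (0.91). Without L1 and D4 these values were 0.87 to 0.91. As many as 238 genes had r over 0.8 with the heat shock mean, against 5 with the immediate early mean. These counts are not like for like, since the heat shock mean is of Hspa1a and Dnajb1 alone. Slide was not taken off, Dnajb1 differed between slides, and the part of slide in the counts was not tested.

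Dnajb1 (chr8:83608175-83612653) differed between slides. Its brighter probe averaged -0.53 ± 0.093 on slide 1, 0.25 ± 0.20 on slide 2, 0.24 ± 0.11 on slide 3, 0.038 ± 0.44 on slide 4 and 0.22 ± 0.16 on slide 5 (SD, n = 4 each). The slide 1 arrays were H1 at -0.48 and H3 at -0.64 in C57BL/6J and A3 at -0.43 and D4 at -0.58 in 129S1/SvImJ. Of the other 16 arrays only C2, at -0.46, lay as low. The F test of slides within genotypes gave 9.17 and an adjusted p of 0.0320 in limma. Dnajb1 was the 1 member of 9 called, and 3.76% of all genes were. At an unadjusted p under 0.05 it was again 1 of 9, against 20.7% of genes.

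The difference lay mainly in the gonad dye. Normalised Cy5 of Dnajb1 averaged 13.5 on slide 1 and 13.9 to 14.1 on the others on the log2 scale, while Cy3 was 14.0 on slide 1 and 13.8 to 13.9 on the others. By array, Cy3 was 13.95 to 14.03 on slide 1, above every array of the other slides (13.77 to 13.92), so the pool dye shifted too. The dimmer probe averaged -0.64 ± 0.20 on slide 1, against -0.17 ± 0.74 to 0.28 ± 0.12 elsewhere. On slide 1 the share of spots well above background was 83.0% to 85.8%, inside the range of the other slides, and the part of that share in the result was not tested. Leaving out 1 array at a time, the call was lost in 8 of 20 cases, with an adjusted p of 0.0508 to 0.0966. Without the 4 arrays of slide 1 the adjusted p was 0.797.

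**Figure D5:**
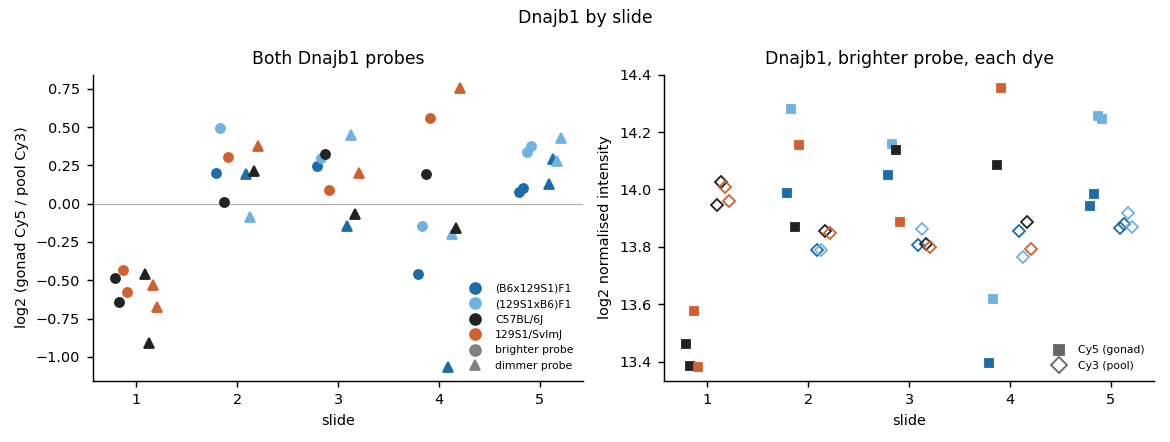
Dnajb1 by slide, one point per array, coloured by genotype. On the left, log2 ratio of both probes. On the right, log2 intensity of each dye for the brighter probe. Slide 1 lies between -0.43 and -0.64 on the brighter probe. Its Cy5 is low, and its Cy3 lies slightly above that of every array of the other slides.

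Slide 1 held only strain arrays, and the hybrids minus the strains was 0.22 ± 0.16 for Dnajb1 and became -0.14 ± 0.12 with slide as a block. Within slides 2, 3 and 4 this difference was 0.19, 0.064 and -0.68. By array Dnajb1 was -0.46, 0.25, 0.076, 0.10 and 0.20 in (B6x129S1)F1 and -0.15, 0.30, 0.49, 0.34 and 0.38 in (129S1xB6)F1, and -0.48, 0.011, -0.64, 0.20 and 0.33 in C57BL/6J and -0.43, 0.31, 0.087, -0.58 and 0.56 in 129S1/SvImJ. The low strain arrays were those of slide 1. Dnajb1 averaged 0.033 ± 0.28 in (B6x129S1)F1, 0.27 ± 0.25 in (129S1xB6)F1, -0.12 ± 0.43 in C57BL/6J and -0.011 ± 0.48 in 129S1/SvImJ.

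Letters in the sample names were tested in the same way. They called 0 of 9 members in limma, against 0.021% of genes. Hspa1a (unadjusted p = 0.0343) and Junb (0.0461) had an unadjusted p under 0.05, which 12.3% of genes had.

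Of 17 other immediate early transcription factors tested, 0 were called in any genotype comparison. Jund, a JUN protein, was closest, at 0.60 ± 0.18 in C57BL/6J minus 129S1/SvImJ with an adjusted p of 0.0714 in limma, and Maff was at 0.49 ± 0.14 in hybrids minus strains with an adjusted p of 0.267. Maff averaged 0.35 on slide 1, which held only strain arrays, and 0.89 to 1.29 on the other slides. The part of slide 1 in its difference was not tested. By slide, 1 of 17 was called, Nr4a2, an orphan nuclear receptor, at -0.80 ± 0.19 on slide 1 and -1.41 ± 0.11 on slide 5. Over all genes 3.76% were called by slide, and 1 of 17 is near that share. Calls by slide over all genes numbered 897, and 16 without slide 1.

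Of 17 feedback and effector genes tested, 0 were called between genotypes. Ccn2, a matricellular protein, was 0.47 ± 0.15 in hybrids minus strains, with an adjusted p of 0.355 in limma. It averaged -0.47 on slide 1, which held only strain arrays, and -0.29 to 0.12 on the other slides. By slide, 1 of 17 was called, near the 3.76% of all genes. This was Gadd45b, which averaged 0.70 ± 0.21 on slide 1 and -0.035 to 0.34 on the others.

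Of 10 upstream factors tested, 0 were called in any comparison. Hsf2, a heat shock factor, was -0.32 ± 0.12 in C57BL/6J minus 129S1/SvImJ, with an adjusted p of 0.173 in limma, and Mrtfa, a partner of serum response factor, was -0.57 ± 0.24 in (B6x129S1)F1 minus (129S1xB6)F1, with an adjusted p of 1.00.

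Of 26 other heat shock proteins and co-chaperones, 0 were called between genotypes. Hspa8, the constitutive HSP70, was -0.38 ± 0.15 in C57BL/6J minus 129S1/SvImJ, with an adjusted p of 0.180 in limma. By slide, 3 of 26 were called, beside 3.76% of all genes with slide 1 and 16 genes in all without it. Dnajb6 averaged -0.94 ± 0.25 on slide 1 and -0.25 to 0.27 on the others, Hspa4l -1.53 ± 0.16 on slide 1 and -1.29 to -0.92 on the others, and Hspbp1 0.50 ± 0.18 on slide 1 and -0.19 to 0.051 on the others. By letter, 0 were called and the smallest adjusted p was 0.0628, for Serpinh1, a collagen chaperone.

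Of 17 genes of the integrated and oxidative stress responses, 1 rose in C57BL/6J and 0 fell, near the 5.27% of all genes called between the strains. Asns, which makes asparagine and is a target of ATF4, averaged 2.53 ± 0.42 in C57BL/6J and 1.01 ± 0.26 in 129S1/SvImJ (SD, n = 5 each). The difference was 1.52 ± 0.24, or 2.88-fold, with an adjusted p of 0.000429 in limma, and the arrays of the strains did not overlap. Hybrids had 1.39 ± 0.43 for (B6x129S1)F1 and 1.78 ± 0.49 for (129S1xB6)F1. The median strain difference of the list was 0.0033, beside 0.0080 over all genes. Between the hybrids, between hybrids and strains, by letter and by slide, 0 of 17 were called.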

How the data were processed

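The scanner files hold intensity per spot and dye, from Agilent's Feature Extraction software (9.1.3.1, per the file headers), and the authors also deposited a table of log2 ratios, used only as an alternative. Its values correlated with the log2 ratio of processed Cy5 over Cy3 at r = 0.935 to 0.960 per array, with column medians of 0.000537 to 0.0417, so its direction is Cy5 over Cy3, and its centring is not given in the sources used here. Probes were named through RefSeq tables (GRCm38.p6) by accession (22951), symbol (6659) or synonym (3109), and otherwise by the file (8455).

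Mean signals were background-corrected with normexp (offset 50), normalised by loess within arrays and tested with limma (version 3.58.1), under R 4.3.3 with the data.table package at 1.17.8. Control spots had weight 0, and spots with uneven feature or background were left out. The normexp parameters were fitted on spots not marked as uneven, a choice made after seeing the data: on array A4, 16 marked spots with net signals as low as -14628 moved the fitted Cy5 background mean to -214 (9.56 without them). With limma's default fit on all spots, A4 correlated with the processed ratios at r = 0.844, against 0.965. The brightest probe stood for a gene, which was tested if 4 or more of the 5 arrays of a group had its Cy5 signal well above background. The model held the 4 genotypes over 20 arrays (16 residual degrees of freedom), and p-values were adjusted by Benjamini-Hochberg over all genes tested, with a threshold of 0.05. Letters (6 degrees of freedom) and slides (4) were tested within genotypes by F tests. Pairs used 100000 permutations within genotype, two-sided, in Python 3.11.15 (numpy 2.4.6, scipy 1.17.1, pandas 2.3.3). Methods were tested on simulated data with independent normal noise, in which genes drawn at random were shifted. For slides only slide 1 was shifted, and for letters only L. Of genes shifted by 0.5 on the log2 scale, 56.7% were recovered between strains, 61.2% between hybrids and 76.1% between hybrids and strains. By slide 29.9% were recovered and by letter 0%, so differences of that size would mostly be missed there. At a shift of 1, 91% were recovered between strains, 70.1% by slide and 56.7% by letter. These shares are for random genes. Of the 9 members, 8 had an SD above the median of all genes, and the recovery of the members was not computed.

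Named genes were all members, and, per other list and comparison, up to 6 called genes or else the 2 with the smallest p, of which a part is printed. The members, lists and comparisons were chosen with earlier results of these data known. Each array is 1 embryo, and arrays were taken as independent. Their number limits the precision.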

Additional observations from a re-analysis of the deposited data

Results flagged for a closer look

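Of 36 combinations of member and genotype, 4 held an array that stood apart from the other 4 by Dixon's test at the 95% level, where chance gives about 1 in 20, or 1.8. Over all probes of the members it was the same 4, of 60 combinations. For Fos, array L4 of (129S1xB6)F1 was at 1.28 and the next at 0.071. For Dnajb1, array C2 of (B6x129S1)F1 was at -0.46 and the next lowest at 0.076, while on the dimmer Dnajb1 probe C2 (-1.06, next lowest -0.15) did not stand apart. For Fosb, array M6 of (129S1xB6)F1 was at 0.46 and the next at 0.21, and array K2 of C57BL/6J was at 0.67 and the next at 0.30. Array A3, the highest for Fos, did not stand apart by this test, with A4 of the same strain at 0.90.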

How the results depend on the processing

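No paired analysis was possible because the replicate numbers only name samples in accession order. Slides 2 to 4 each held every genotype, and slide as a block was fitted instead. In all 129 fits of the genotype comparisons and all 30 of the letters, 0 members were called. Of 879 member differences recomputed under alternatives, 36 changed sign, each with an unadjusted p of 0.255 or more in limma, and causes were not tested. These were, without background subtraction, the strain differences of Junb (-0.027) and Egr1 (-0.023) and the hybrids minus strains of Egr1 (-0.020); from processed signals, Junb between strains (-0.013); from the mean over probes, Junb between strains (-0.17); with slide as a block, hybrids minus strains of Jun (-0.056), Egr1 (-0.12) and Dnajb1 (-0.14); and with array weights, Junb (-0.046) and Egr1 (-0.051) between strains. Leaving out 1 array at a time, the strain difference ranged from -0.11 to 0.10 for Junb, -0.12 to 0.25 for Egr1, -0.19 to 0.087 for Atf3 and -0.25 to 0.035 for Dnajb1. The hybrid difference ranged from -0.31 to 0.023 for Fos and -0.021 to 0.12 for Jun, and hybrids minus strains from -0.0054 to 0.065 for Fosb and -0.067 to 0.12 for Egr1.

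Genes called between hybrids and strains (58) numbered 15 without background subtraction, 21 with slide as a block, 34 with letter as a random block and 34 to 72 with 1 array left out. Genes called between the hybrids (2) numbered 1 with the filter on all 20 arrays, 1 from the arrays of both hybrids alone, 0 with normexp fitted on all spots and 1 to 4 with 1 array left out. Genes called by letter (5) numbered 9 without background subtraction, 17 from processed signals, 43 from the deposited table, 8 without a filter, 0 with slide as a block, 11 with normexp fitted on all spots and 2 to 11 with 1 array left out. The F test of genotypes (876 genes) gave 541 with letter as a random block. Slides (897 genes) gave 488 with normexp fitted on all spots, 16 without slide 1, where 0 members were called, and 290 to 1360 with 1 array left out, where 0 to 1 members were called. Pairs called (0) numbered 4 from processed signals, 3 with slide taken off and 2 with normexp fitted on all spots. The normexp fit on all spots and the slides without slide 1 were added after seeing the data. Fos was not tested under the filter on all 20 arrays. Its signal, well above background on 18 of 20 arrays, limits its precision.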
